A study of Mus musculus with 8 samples.

Results

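Imprinted genes are transcribed from a single parental allele, and many of them control growth before and after birth. A group of 10 such genes was followed in regenerating mouse muscle: H19, Igf2, Dlk1, Meg3, Cdkn1c, Peg3, Mest, Plagl1, Grb10 and Ndn. They were selected on gene symbol, with earlier genotype differences from the same arrays known, and the brightest row of each was to be used. The platform annotation named 9 of the 10 alone on a row, with 1 row each, out of 19752 genes with such a row. H19, a maternally expressed noncoding RNA that restrains growth, was not analysed here. All 9 remaining members passed the filter on dim rows (mean log2 level of at least 6.35), which left 15007 genes to test. The genotype values of the members are therefore a description and do not support a claim about them.

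The arrays came from whole tibialis anterior muscle, a fast muscle of the lower leg, of male C57BL/6 mice. The muscle had been injured by contact with a metal probe cooled in liquid nitrogen for 8 seconds, and was taken on day 8. One group of 4 samples was Foxp3-Cre/ST2 flox and the other group of 4 was Foxp3-Cre/ST2 WT, so both carried the Cre driver. Foxp3 is the lineage factor of regulatory T cells, so the Cre is expected to act in those cells, a small part of the tissue, while the imprinted genes were read in all cells of the muscle. Sample labels give 10 weeks of age and the series text gives 2 months. Il1rl1, the gene that encodes ST2, was not used here as a check of the genotype. The question behind the comparison is what ST2, the receptor for interleukin-33, does in regulatory T cells as muscle regenerates. Levels are log2 intensities and differences are log2 flox minus WT, each given beside the standard error (SE) of the limma fit. Nothing in the labels says that the numbered samples are separate animals. A p-value therefore covers sample-to-sample spread, possibly technical.

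Array medians lay between 185 and 189 intensity units. Defining muscle markers were above the filter: all 9 satellite cell and myoblast, all 8 regenerating fibre and all 9 mature fibre genes. Genes of other cell types passed too, with all 7 macrophage, all 7 endothelial and 6 of 8 T cell markers above the filter. The filter passed 15007 of 19752 genes, so passing it does not by itself show that a cell type was present. The T cell markers that passed had mean levels of 6.87 to 7.38, below the 50th percentile of all rows (7.54). In such bulk samples, fewer cells of a type and less RNA per cell cannot be told apart. Skin markers were uneven: the summed log2 level of the keratinocyte list was 8.90 to 9.34 on the flox arrays, against 9.11 to 11.05 on the WT arrays, where the highest value belonged to WT array 4.

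These genes work on a shared theme by different means. Igf2 encodes a growth factor that signals through the type 1 insulin-like growth factor receptor, Grb10 an adaptor that dampens insulin and insulin-like growth factor signalling, and Cdkn1c the cell cycle inhibitor p57. Plagl1 (also called Zac1) encodes a zinc finger factor known in mouse to regulate several other imprinted genes. Dlk1 and Meg3 lie in 1 imprinted cluster, Dlk1-Dio3, whose paternal allele makes the protein-coding genes Dlk1, Rtl1 and Dio3. Its maternal allele makes the noncoding RNAs Meg3, Rian and Mirg and a long series of small RNAs, miRNAs among them. In muscle the cluster is known for its expression in developing and regenerating tissue.

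The miRNA genes of the cluster whose genotype differences stood out are shown by their mature sequences, since these are what sets them apart from each other. They are RefSeq sequences of build GRCm38.p6, written 5' to 3', with the seed (bases 2 to 8, the part that pairs with target mRNAs) in capitals. All lie on the plus strand of chromosome 12.
miR-341-5p: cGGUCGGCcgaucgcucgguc
miR-341-3p: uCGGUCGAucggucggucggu
miR-329-5p: aGAGGUUUucugggucucuguu
miR-329-3p: aACACACCcagcuaaccuuuuu
miR-300-5p: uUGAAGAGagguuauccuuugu
miR-300-3p: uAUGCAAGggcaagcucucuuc
miR-382-5p: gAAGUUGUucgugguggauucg
miR-382-3p: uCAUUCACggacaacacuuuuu
miR-377-5p: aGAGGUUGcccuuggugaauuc
miR-377-3p: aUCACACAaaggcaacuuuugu

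No seed was shared among these 10 sequences. Over all 40 miRNA genes of the cluster that had a row naming them alone, the 76 mature sequences held 74 distinct seeds. The 2 shared seeds joined miR-379-3p with miR-411-3p and miR-376c-5p with miR-376b-5p. Mir675, the miRNA gene inside H19, is encoded on the minus strand of chromosome 7. Its mature forms are shown because it is processed from the H19 transcript, and it has no values here.
miR-675-5p: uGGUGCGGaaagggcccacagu
miR-675-3p: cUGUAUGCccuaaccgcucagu

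Promoter windows were read for the 3 members with the smallest unadjusted p in the genotype fit, Dlk1, Meg3 and Plagl1, to show how their start sites differ in CpG content. In mouse the imprint of the Dlk1-Dio3 cluster is controlled from a methylated region between Dlk1 and Meg3, which these windows do not show. Each runs from 250 bases before to 50 bases after the RefSeq start (GRCm38.p6), with each CpG in capitals. Methylation was not measured in this series.
Dlk1 (plus strand, chr12:109452573-109452872): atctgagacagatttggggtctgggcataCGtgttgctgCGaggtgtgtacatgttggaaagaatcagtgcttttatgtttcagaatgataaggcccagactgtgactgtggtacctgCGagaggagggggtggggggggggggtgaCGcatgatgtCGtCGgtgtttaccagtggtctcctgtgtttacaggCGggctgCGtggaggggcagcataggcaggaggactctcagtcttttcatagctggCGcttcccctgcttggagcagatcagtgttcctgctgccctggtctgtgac
Meg3 (plus strand, chr12:109540746-109541045): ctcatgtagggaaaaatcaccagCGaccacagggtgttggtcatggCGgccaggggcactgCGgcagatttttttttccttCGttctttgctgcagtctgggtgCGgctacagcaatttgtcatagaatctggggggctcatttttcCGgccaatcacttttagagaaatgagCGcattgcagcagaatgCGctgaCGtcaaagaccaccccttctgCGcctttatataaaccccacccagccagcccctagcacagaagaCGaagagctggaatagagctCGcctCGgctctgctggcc
Plagl1 (plus strand, chr10:13090582-13090881): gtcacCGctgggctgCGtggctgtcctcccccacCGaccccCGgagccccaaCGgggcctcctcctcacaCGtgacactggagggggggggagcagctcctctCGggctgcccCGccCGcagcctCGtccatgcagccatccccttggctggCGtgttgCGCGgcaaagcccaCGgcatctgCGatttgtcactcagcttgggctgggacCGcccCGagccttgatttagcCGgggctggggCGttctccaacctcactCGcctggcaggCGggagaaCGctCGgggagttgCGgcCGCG

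Meg3 has a further RefSeq window, at a later start, which is not printed. The 3 windows shown differed in CpG content, with 9 CpG sites for Dlk1, 13 for Meg3 and 26 for Plagl1. Observed over expected CpG was 0.427, 0.602 and 0.696 for Dlk1, Meg3 and Plagl1, against a median of 0.384 over 32851 RefSeq windows of the same length. The further Meg3 window (chr12:109545148-109545447) held 1 CpG, with observed over expected at 0.0588, below that median. RefSeq gave 15 such windows for 8 of the members, with a median of 0.590. The motif GGGGCCCC, a PLAGL1 motif, was searched on both strands and occurred in 1 of the 15 windows, that of Peg3, and in 1.08% of all windows. The E-box CAGCTG occurred in 1 of the 15, a Mest window, and in 16.3% of all windows. A match only describes these letters.

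In the whole-table limma fit none of the members was called, as none of 15007 genes was (0% called at an adjusted p of 0.05). The mean over flox arrays was the higher one for all 9 members and for 48.8% of tested genes, and their median difference was 0.17, against a median of -0.00 over all genes. The members' differences ran from 0.08 to 0.36. Of the 9, 3 had an unadjusted p under 0.05 and a higher flox mean (2.03% of all genes tested), namely Dlk1, Meg3 and Plagl1. For none of the 9 did the flox and WT arrays separate completely, while 1.14% of all genes had every flox array above every WT array. The genotype contrast is the one on which the members were proposed, so nothing is read from these shares. The adjusted p in limma was 0.912 for 8 members and 0.920 for Ndn.

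Among the ligands, Igf2 lay at log2 levels of 11.56, 11.70, 11.73 and 11.84 on flox arrays 1 to 4, against 11.69, 11.61, 11.49 and 11.65 on WT arrays 1 to 4. Flox array 1 fell inside the WT range, and the other 3 flox arrays lay just above it. The difference was 0.10 (SE 0.07, 1.07-fold). Dlk1, a transmembrane relative of the Notch ligands, lay at 9.29, 9.06, 9.49 and 9.22 on the flox arrays, against 9.001, 9.03, 9.17 and 9.05 on the WT arrays. Here flox array 2 sat among the WT arrays and flox array 3 stood highest. The Dlk1 difference was 0.20 (SE 0.09, 1.15-fold), and 0.13 (SE 0.08) without flox array 3, an array to which several members are sensitive.

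Mest, a paternally expressed gene of the hydrolase fold, was the most uneven member in flox muscle. Its levels were 10.37, 11.24, 11.14 and 10.99 on flox arrays 1 to 4, against 10.69, 10.61, 10.75 and 10.74 on the WT arrays. Flox array 1 was below every WT array and the other 3 were above every one, so the flox SD was 0.39, against a WT SD of 0.06. The difference of 0.24 (SE 0.16) became 0.42 with flox array 1 left out and 0.13 with flox array 2 left out. The summed log2 level of the regenerating fibre markers was likewise lowest on flox array 1, at 14.32, while flox arrays 2 to 4 had 14.55, 14.70 and 14.64 and the WT arrays 14.36 to 14.54. The part of that list in the Mest values was not tested.

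Cdkn1c, Grb10 and Ndn are among the members that restrain growth signals or division. Cdkn1c lay at 9.12, 9.25, 9.49 and 9.35 on the flox arrays, against 9.21, 9.20, 9.09 and 9.36 on the WT arrays. Only flox array 3 was above every WT array, and the difference was 0.09 (SE 0.09), or 0.02 without that array. Grb10 lay at 10.29, 10.37, 10.57 and 10.36 on the flox arrays, against 10.27, 10.34, 10.24 and 10.08 on the WT arrays. All flox arrays but the first were above the WT range, with WT array 4 the lowest of all, and the difference was 0.17 (SE 0.08, 1.12-fold). Ndn encodes necdin, a growth suppressor of postmitotic neurons that is also expressed in muscle. It lay at 9.23, 9.44, 9.62 and 9.20 on the flox arrays, against 9.22, 9.26, 9.20 and 9.48 on the WT arrays. Its groups were mixed through each other, and the difference of 0.08 (SE 0.10) was -0.00 without flox array 3.

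The transcription factor Plagl1 lay at 9.81, 9.81, 10.00 and 9.61 on the flox arrays, against 9.54, 9.66, 9.48 and 9.61 on the WT arrays. Flox array 4 fell among the WT arrays and the other 3 were above them. The difference was 0.23 (SE 0.08, 1.18-fold), or 0.17 with flox array 3 left out and 0.30 with flox array 4 left out. Peg3 (PW1), a zinc finger factor that marks interstitial and satellite cells in muscle, lay at 10.46, 10.51, 10.81 and 10.74 on the flox arrays, against 10.58, 10.40, 10.51 and 10.48 on the WT arrays. Flox arrays 3 and 4 were above the WT range and the other pair inside it. The Peg3 difference was 0.14 (SE 0.09), and 0.08 without flox array 3.

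Meg3, the maternal noncoding RNA of the Dlk1-Dio3 cluster, had the largest difference of the 9 members. It lay at 10.60, 10.73, 11.19 and 10.75 on flox arrays 1 to 4, against 10.32, 10.37, 10.46 and 10.70 on WT arrays 1 to 4. Flox array 1 was below WT array 4 and above the other WT arrays, and the other 3 flox arrays were above every WT array. The group means were 10.82 ± 0.26 in flox and 10.46 ± 0.17 in WT muscle (SD, n = 4 each), a difference of 0.36 (SE 0.13, 1.28-fold). Without flox array 3 the difference was 0.23 (SE 0.10).

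**Figure D1:**
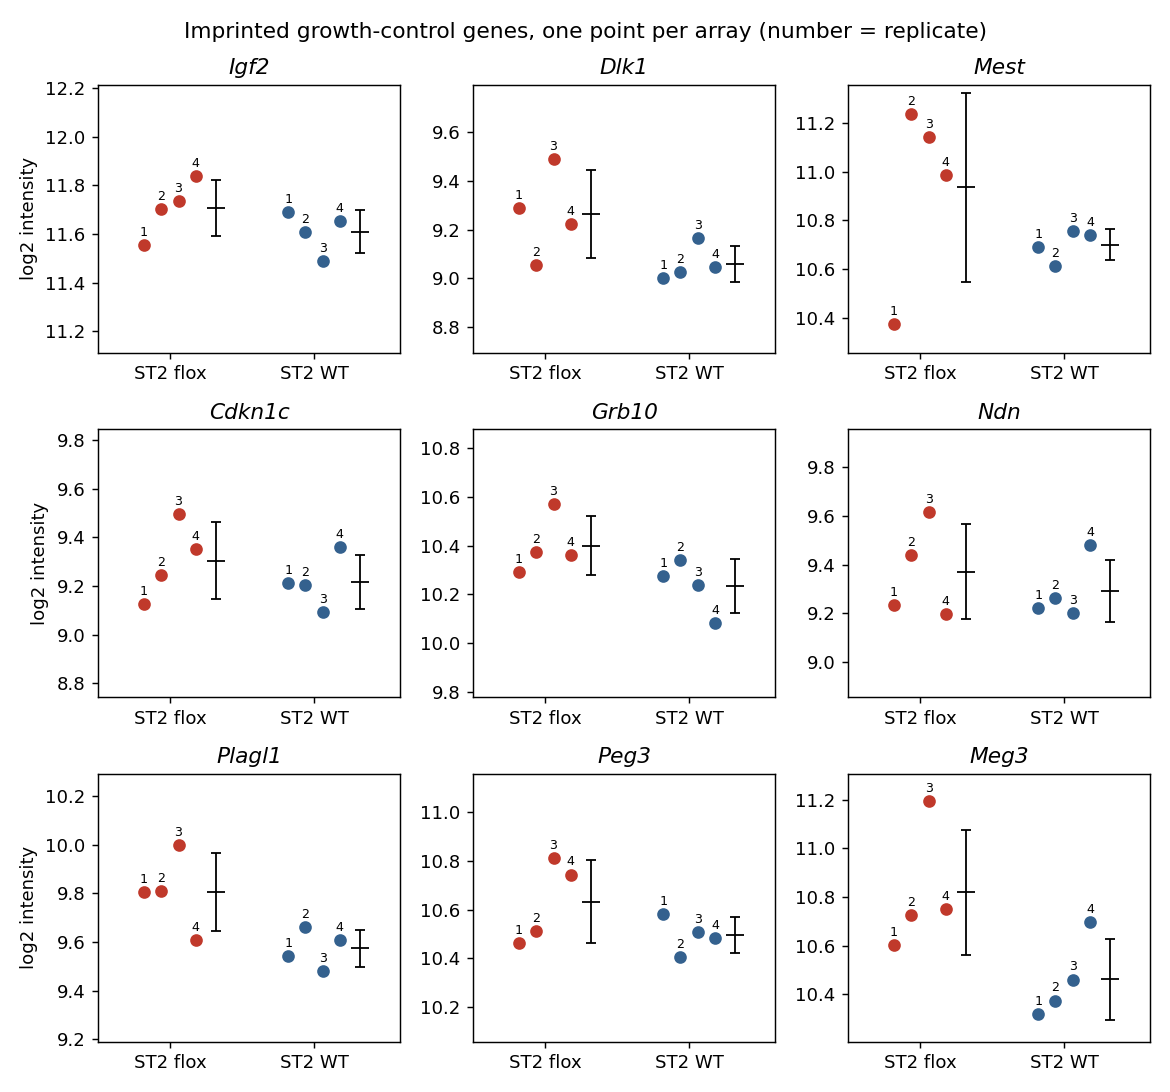
Log2 intensity of the 9 members with a row, 1 point per array with its replicate number, ST2 flox left of ST2 WT, and mean with SD as black bars. Every panel spans the same number of log2 units, and the groups overlap in all 9 panels, with Mest most spread in flox (SD 0.39) and Meg3 the farthest apart (0.36).

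Flox array 3 held the highest level of 7 of the 9 members, the exceptions being Igf2 (flox array 4) and Mest (flox array 2). The share of all tested genes that were highest on flox array 3 was not computed, so this count has no background. The members had also been proposed for a higher flox mean, which partly fixes that the highest array is a flox array. Averaged over the 9 members after centring each gene, the arrays stood at -0.08, 0.07, 0.29 and 0.07 in flox and at -0.10, -0.11, -0.12 and -0.03 in WT muscle. Thus flox array 1 lay within the WT range and flox array 3 far above the rest. The regenerating fibre markers were highest on flox array 3 too, with a summed log2 level of 14.70, and satellite cell and myoblast markers were highest on flox array 4 (13.95 there, 13.73 to 13.87 on the other flox arrays and 13.78 to 13.85 on the WT arrays). Macrophage markers summed to 13.61, 13.59, 13.29 and 12.92 on flox arrays 1 to 4, and to 13.07 to 13.40 on the WT arrays, so the first pair was highest. T cell markers summed to 9.89, 9.98, 9.80 and 9.67 on flox arrays 1 to 4, against 9.61 to 9.65 on the WT arrays, so every flox array was above every WT array. Of that list 6 of 8 genes passed the filter, and Cd3d did not. The part of these markers in the members' levels was not tested.

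**Figure D2:**
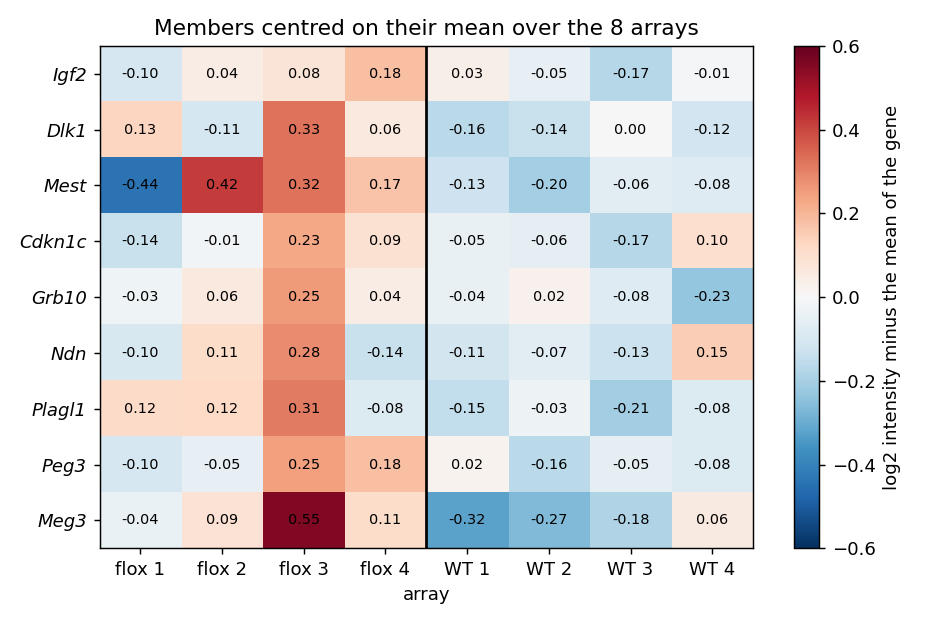
Log2 intensity of each member minus its mean over the 8 arrays, with flox arrays 1 to 4 on the left and WT arrays 1 to 4 on the right. Flox array 3 is the highest array for 7 of the 9 members, a count with no background over all genes, and Meg3 has the strongest value there.

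How the members vary together from array to array was described over all 36 pairs of the 9 genes. All 9 had been proposed for a higher flox mean on these arrays, so a positive r over the 8 arrays is partly fixed by that choice, and no p is given for a single pair. Over the 8 arrays all 36 pairs had a Pearson r above 0 (median r = 0.61), where 50.7% of all pairs of tested genes did (median r = 0.01). With the group means removed from each gene, 32 of the 36 were above 0 and the median r was 0.45. The 4 pairs below 0 were Igf2 with Dlk1 (-0.24), Igf2 with Plagl1 (-0.13), Dlk1 with Mest (-0.11) and Peg3 with Plagl1 (-0.00). The share over all pairs of tested genes was not computed with the group means removed, so the count of 32 has no background. Removing the means also leaves in place flox array 3, the highest array for 7 of the 9 members. Pairs that share a gene are not independent of each other, and all pairs share the same 8 arrays. None of the 36 passed an adjusted p of 0.05 by exact permutation over the 8 arrays. None passed with the group means removed either. There the permutation p is only approximate, as deviations from the group means were exchanged across genotypes.

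Meg3 and Cdkn1c had r = 0.81 and Spearman's rho = 0.71 over the 8 arrays, with r = 0.83 once the group means were removed. Without the arrays farthest from the Meg3 median, flox array 3 and WT array 1, r was 0.68. The cluster neighbours Dlk1 and Meg3, which come from opposite parental alleles, had r = 0.78 and rho = 0.74, with r = 0.61 once the group means were removed and 0.47 without flox arrays 1 and 3. Plagl1 and Meg3 had r = 0.78 and rho = 0.62, with r = 0.55 once the group means were removed and 0.32 without flox array 3 and WT array 1. Igf2 and Cdkn1c, neighbours on distal chromosome 7, had r = 0.75 and rho = 0.81, with r = 0.71 once the group means were removed and 0.73 without flox array 4 and WT array 3. These 4 pairs kept a positive r in each case, and r for both Dlk1 and Plagl1 with Meg3 was lower without the outlying arrays. They do not stand for all pairs of members. With outlying arrays left out in the same way, r over all pairs ran from -0.67 (Mest with Plagl1) to 0.87 (Igf2 with Mest). Several pairs fell below 0, Cdkn1c with Plagl1 and Dlk1 with Ndn among them. A positive r without the outlying arrays was therefore not general among the members. An unadjusted permutation p under 0.05 was found for 11 pairs over the 8 arrays (exact) and for 5 with the group means removed (approximate). Leaving out 1 array gave 1 pair without flox array 3, 4 without WT array 1, 4 without WT array 2, 7 without flox array 4 or WT array 3, and 8 to 12 without the others. Each of these rests on 7 arrays. The share of all pairs of tested genes with an unadjusted p under 0.05 was not computed. None of these counts of pairs therefore has a background, and nothing is read from them. Within a genotype only 4 arrays remain, too few for a correlation.

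The genes of the whole table most alike in pattern to 3 of the members were picked by Pearson r over the 8 arrays. For Meg3 they were Mir485 (r = 0.98), Cad (0.96) and Mir377 (0.95), and both miRNA genes lie in the same cluster as Meg3. For Dlk1 they were H4c8 (0.94), Ppfibp2 (0.92) and Ddb1 (0.91), and for Igf2 they were Ccdc141 (0.98), Eif5a2 (0.96) and 4930429B21Rik (0.96). These are the highest values among all tested genes outside the members and are given with no test.

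Inside the cluster, RefSeq lists 103 genes from Dlk1 to Dio3, of which 61 are miRNA genes, and 45 had a row naming them alone. Rian and Mirg share rows with other genes and were not analysed by name. The 3 rows that name only genes of the cluster, more than 1 gene each, differed by 0.06, 0.22 and 0.64 between the genotypes, higher in flox. The groups overlapped in all 3 rows, which were not part of the limma fit and have no SE. The row with 0.64 lay at 7.36, 7.84, 8.25 and 7.79 on the flox arrays, against 6.85, 6.91, 7.36 and 7.55 on the WT arrays. Of the 45 genes, 25 were above the filter, with Mir487b (mean 6.37) and Mir412 (6.59) just inside it and Dio3 (6.16) and Mir369 (5.93) just outside. What RNA form a miRNA row reads, precursor or mature, is not given in the sources used here, and rows of 1 transcript are not independent.

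Among the 25 tested genes of the cluster, the flox mean was above the WT mean for 20 and below it for 5, with a median difference of 0.13. The 7 members outside the cluster had a median difference of 0.14. The cluster as a whole and the members outside it thus differed by -0.01 in their medians, while Dlk1 (0.20) and Meg3 (0.36) lay above both. This gap was -0.07 with flox array 4 left out and 0.04 with flox array 2 left out. The members had been proposed for a higher flox mean and most cluster genes had not, so the gap sets unlike groups side by side and nothing is read from it. Without Dlk1 and Meg3, the 23 tested cluster genes had a median difference of 0.11. The 39 tested imprinted genes outside both the cluster and the member list had 0.04. Of the cluster genes, 7 had an unadjusted p under 0.05 and a higher flox mean (2.03% of all genes tested), and 4 had all flox arrays above all WT arrays (1.14% of all genes tested). The 7 include Dlk1 and Meg3, which were proposed on this contrast. Without them the counts were 5 and 4 of 23 genes.

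The other coding genes of the paternal allele had lower means in flox muscle. Rtl1, a retrotransposon-derived gene needed in placenta and muscle, lay at 6.68, 6.90, 6.90 and 6.80 on the flox arrays, against 6.84, 6.97, 6.99 and 6.85 on the WT arrays. Its difference was -0.09 (SE 0.07), with overlapping groups. Dio3, the enzyme that inactivates thyroid hormone, was below the filter, at 5.82, 5.84, 6.27 and 6.33 on the flox arrays and 6.26, 6.31, 6.36 and 6.13 on the WT arrays. By parental allele, the 6 paternally expressed members had a median difference of 0.17 and the 3 maternally expressed members, with Grb10 counted as maternal, 0.17 as well.

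Among the miRNA genes of the cluster, 18 of the 22 tested had a higher mean in flox muscle, with a median difference of 0.12. Of the 112 tested miRNA genes elsewhere in the genome, 27 did, with a median of -0.07. Averaged per array after centring each gene, the cluster miRNA genes stood at -0.10, -0.03, 0.22 and 0.17 on the flox arrays and -0.09, -0.10, -0.08 and 0.00 on the WT arrays. Other miRNA genes stood at -0.11, -0.07, -0.04 and 0.11 on the flox arrays and 0.05, 0.05, -0.01 and 0.02 on the WT arrays. Flox arrays 3 and 4 were thus high for the cluster, whereas flox array 4 alone was high for other miRNA genes. Without flox array 3 the count was 15 of 22 in the cluster (median 0.09) and 30 of 112 elsewhere (median -0.07), and without flox array 4 the cluster median was 0.06. With no filter, 35 of 40 cluster miRNA genes had a higher flox mean (44.1% of all genes without the filter), and 4 had fully separated groups (0.992% of all genes).

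**Figure D3:**
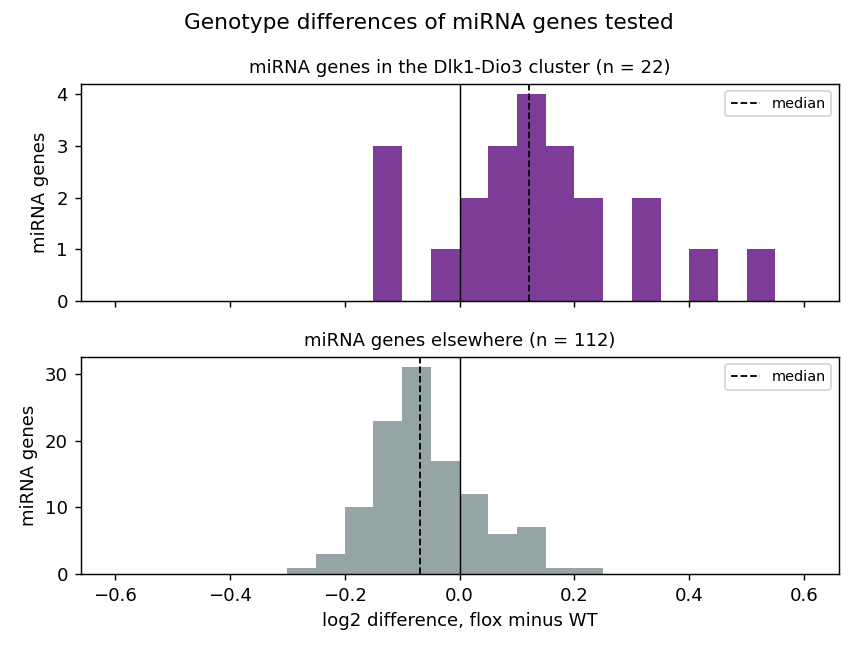
Histograms of the log2 difference, flox minus WT, for the tested miRNA genes of the Dlk1-Dio3 cluster (upper panel, 22 genes) and elsewhere (lower panel, 112 genes), with the median as a dashed line. The cluster median lies at 0.12 and the other median at -0.07, and the spreads overlap.

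The cluster was also split at Rian, after the values were seen and with no test. The 6 tested miRNA genes before Rian had a median difference of 0.07, with 4 of 6 higher, and the 16 from the start of Rian onward had 0.15, with 14 of 16 higher. The 4 miRNA genes with fully separated groups were all in the second stretch. Mir341 lay at 9.57, 9.56, 9.52 and 9.47 on the flox arrays, against 9.39, 9.36, 9.29 and 9.31 on the WT arrays, a difference of 0.19 (SE 0.05). Its arrays were tight within each genotype, and the difference was 0.20 without flox array 3.

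Mir382, whose seeds are printed with the other sequences, lay at 7.42, 7.52, 7.84 and 7.28 on the flox arrays, against 6.98, 7.04, 7.16 and 7.19 on the WT arrays. The lowest flox array was just above the highest WT array, and the difference was 0.43 (SE 0.11, 1.34-fold). Mir300 lay at 6.79, 6.82, 7.03 and 6.64 on the flox arrays, against 6.58, 6.51, 6.40 and 6.47 on the WT arrays, which puts it close to the filter. Its difference was 0.33 (SE 0.08). Mir329 lay at 7.42, 7.48, 7.80 and 7.42 on the flox arrays, against 7.12, 7.26, 7.07 and 7.41 on the WT arrays. Here flox array 3 stood well above the other flox arrays, and WT array 4 nearly reached flox arrays 1 and 4, for a difference of 0.31 (SE 0.10).

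Among cluster genes with a row naming them alone, Mir377 had the largest difference, 0.54 (SE 0.19, 1.46-fold), but its groups overlapped. Its levels were 7.32, 7.44, 8.04 and 7.53 on the flox arrays, against 6.55, 6.97, 7.21 and 7.44 on the WT arrays. Without flox array 3 the differences were 0.39 for Mir377, 0.32 for Mir382, 0.26 for Mir300 and 0.23 for Mir329. In limma these 5 miRNA genes had an adjusted p of 0.912 over all genes. At the other end, Mir666 (-0.13, SE 0.11), Mir667 (-0.11, SE 0.09) and Mir673 (-0.11, SE 0.08) had lower flox means with overlapping groups.

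**Figure D4:**
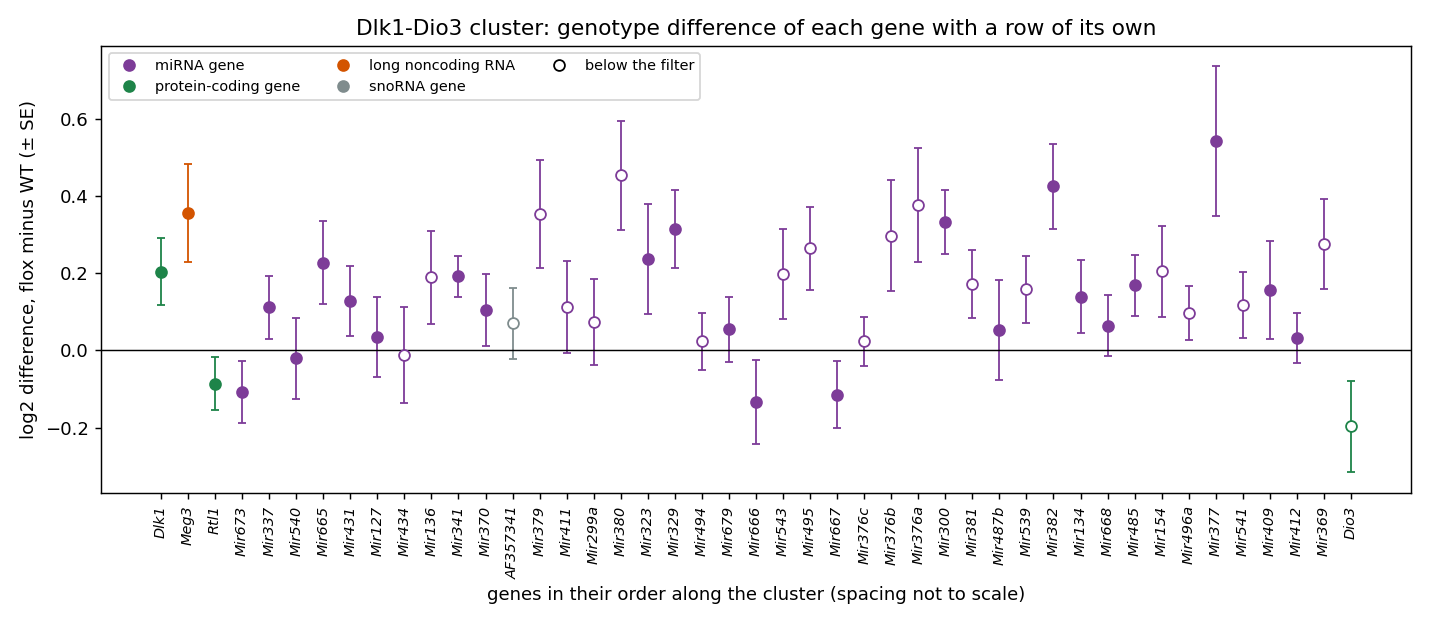
Log2 difference, flox minus WT, with SE for the 45 genes of the Dlk1-Dio3 cluster that have a row naming them alone, in their order along the cluster; filled points passed the filter and open points did not. Most points lie above 0, Mir377 is the highest at 0.54, and Rtl1 and Dio3 lie below 0.

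A further list held 50 imprinted genes outside the cluster and the member list. Of these, 39 were tested, 24 had a higher flox mean, and the median difference was 0.04. One had an unadjusted p under 0.05 in each direction (1 higher, 1 lower, where 1.77% of all genes tested were lower). The lower one was Slc22a18, a transporter gene of the Cdkn1c domain, at 7.40, 7.42, 7.45 and 7.50 on the flox arrays and 7.59, 7.58, 7.56 and 7.59 on the WT arrays. Every flox array was below every WT array (0.826% of all genes tested), and the difference was -0.14 (SE 0.05). Zim1, the maternally expressed neighbour of Peg3, lay at 9.45, 9.28, 9.53 and 9.51 on the flox arrays, against 9.33, 9.17, 9.33 and 9.13 on the WT arrays, with a difference of 0.20 (SE 0.08). Tfpi2, an inhibitor of serine proteases, differed by 0.22 (SE 0.11).

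Partners of Igf2 were read next. Of 16 tested genes of the insulin-like growth factor axis, 9 had a higher flox mean and the median difference was 0.02. Igf2r, the receptor that clears Igf2 and is itself imprinted, lay at 9.93, 9.97, 10.15 and 9.95 on the flox arrays and 9.93, 9.79, 9.89 and 9.96 on the WT arrays. These groups overlapped and differed by 0.11 (SE 0.07). Igfbp7, a secreted binding protein, differed by 0.14 (SE 0.06), and Akt1, a kinase downstream of the receptor, by 0.11 (SE 0.06).

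Cdkn1c was set beside its relatives. Of the other inhibitors of cyclin-dependent kinases, 5 were tested and 2 had a higher flox mean, with Cdkn2c at 0.19 (SE 0.08), Cdkn2a at -0.14 (SE 0.06) and Cdkn2b at -0.04 (SE 0.06). The cell cycle genes themselves had a higher flox mean in 18 of 19 cases, with a median of 0.20, led by Cdk1 (0.40, SE 0.11), Mcm4 (0.30, SE 0.08) and Top2a (0.36, SE 0.12). Their summed log2 level was 12.52, 12.83, 12.71 and 12.48 on the flox arrays, against 12.39 to 12.43 on the WT arrays, so every flox array was above every WT array, with flox array 2 highest and flox array 3 next. Of the 12 Notch pathway genes, set beside Dlk1, 10 had a higher flox mean, with a median of 0.06, and the largest difference was that of the ligand Jag1 (0.17, SE 0.10). Of the p53 and Peg3 partner genes 3 were tested, with a median of 0.01, and Traf2, which binds PEG3, differed by 0.04 (SE 0.05).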

How the data were processed

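Whole-muscle RNA was hybridised to Affymetrix Mouse Gene 1.0 ST arrays, 1 per sample (4 ST2 flox, 4 ST2 WT). The deposited intensity values were made by the authors with RMA in Affymetrix Power Tools, per the submitters' processing notes; the sources used here give no version, genome build or row filter. RMA makes array distributions alike and compresses changes of dim rows. The number of arrays limits the precision.

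From these, log2 was taken with no pseudocount. Of 24922 rows, 21425 had 1 gene symbol in the platform annotation, 1399 had several and 2098 had none here; only the first were named. Rows with a mean below the 25th percentile (6.35) were left out and the brightest row per gene was kept, which left 15007 genes. The genotype fit used limma (version 3.58.1, R version 4.3.3; group only, default prior, Benjamini-Hochberg over all genes). Correlations used exact two-sided permutation over all 40320 pairings. With the group means removed, the p of that permutation is only approximate. Cluster order and names came from the RefSeq gene table of GRCm38.p6. The fit was tested on simulated data, with 50 genes changed at each fold. It called 17 of 50 at 1.25-fold, 43 at 1.5-fold and 50 at 2-fold, with 15 false calls among unchanged genes. The members' folds were at most 1.28, so the lack of calls does not show a lack of difference.

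The members and gene lists were chosen with earlier results of these data known. Genes named are the members, cluster genes with an unadjusted p under 0.05 or separated groups (plus Rtl1, Rian, Mirg and Dio3), up to 3 genes per list with the smallest p, and the 3 genes most alike to a member; Mir666, Mir667, Mir673, Mir370, Cd3g and Ctsh, and the genes at the filter's edge, were named after their values were seen. Marker lists for cell types were used as summed levels. Alternatives were normalization, filter, row choice, prior, a replicate block, removal of group means and leaving out each array. Same-numbered arrays were not treated as pairs.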

Additional observations from a re-analysis of the deposited data

Results flagged for a closer look

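Among the members and tested cluster genes, 64 sets of 4 arrays were checked for a single array far from the other 3, with the gap taken as a share of the range of the set, and 2 stood out. About 1 in 20 sets would by chance. Mir329 was at 7.80 on flox array 3, against 7.42 to 7.48 on the other flox arrays (gap 0.838 of the range). Mir370 was at 6.75 on WT array 2, against 6.68 to 6.69 on the other WT arrays (gap 0.854 of the range), a spread of under 0.1 log2.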

How the results depend on the processing

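The 9 members kept their direction and stayed uncalled under all 72 combinations of member and setting that did not drop an array, and in 71 of 72 that did; the exception was Ndn, whose difference was -0.00171 without flox array 3 and at most 0.143, without WT array 4. The smallest adjusted p of a member under any setting was 0.129 (Plagl1, limma without flox array 4). Leaving out each array in turn, genes past an adjusted p of 0.05 numbered 0 to 2, the 2 being Cd3g and Ctsh, neither of them a member, without flox array 4; genes with an unadjusted p under 0.05 numbered 245 to 3012, against 569 with all arrays and 344 with the filter at the 50th percentile. Pairs of members past an adjusted p of 0.05 by permutation numbered 0 to 1, the 1 being Cdkn1c with Ndn (r = 0.93) without flox array 4. That pair rests on 7 arrays and on genes proposed on these same arrays, so nothing is read from it. Cluster miRNA genes with a higher flox mean numbered 18 of 22 under each other normalization, and 7 of 11 with the filter at the 50th percentile; for miRNA genes elsewhere the median stayed below 0, at -0.12 to -0.04. The replicate block left 0 genes called and gave 694 genes an unadjusted p under 0.05. Same-numbered arrays correlated at -0.00, 0.35, 0.25 and 0.04 in their deviations from the group means, and 3 of the 4 flox arrays correlated best with a WT array of another number. WT array 2 correlated at 0.27, 0.35, -0.37 and -0.27 with flox arrays 1 to 4, and WT array 1 at -0.00, 0.00, -0.22 and 0.11. So few values cannot settle whether arrays of like or near number share variation, which was not tested. The cause of these changes was not tested. Summed list levels moved by less than 1 SD in 40 of 40 cases.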
